A study of Mus musculus with 18 samples.

Results

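The mitochondrial ribosomal protein genes were taken as every gene of the deposited expression table whose symbol begins with Mrpl or Mrps followed by a number, which gave 77 of 15329 listed genes. RNA of the mouse hippocampus was sequenced from 18 C57BL/6J mice of 8 to 10 weeks, with 3 mice in each of 6 groups and 1 library per mouse. WT mice and mice lacking Cyclin Y (*Ccny* KO) were left untrained (WT_Basal and KO_Basal), trained to find a hidden platform in the Morris water maze (original learning, WT_OL and KO_OL), or trained in the same way and then to a new platform position (reversal learning, WT_RL and KO_RL). The series asks how training and the loss of Cyclin Y change hippocampal transcripts. Each library holds the whole tissue, so fewer cells of a type and less RNA per cell cannot be told apart. KO libraries gave 74.0 to 95.8 CPM (reads of a gene scaled by library size) of *Ccny* (n = 9) and WT libraries 106.6 to 158.5 CPM (n = 9), with no overlap, so the targeted gene was lower but not absent in KO mice. The p-values below measure the spread between these mice, and the labels do not tie mice of the same number together.

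The mitoribosome translates the few proteins that the mitochondrial genome encodes, which are core subunits of the respiratory chain and of ATP synthase. Its RNA comes from the mitochondrial genome, whereas all of its proteins are encoded in the nucleus, made in the cytosol and imported. A large subunit (Mrpl genes) joins amino acids and releases the chain at the inner membrane, and a small subunit (Mrps genes) reads the mRNA. Many of the proteins descend from bacterial ribosomal proteins and others were gained in mitochondria. By textbook roles, 50 of the 77 genes encode large subunit proteins and 26 small subunit proteins, and the last, *Mrps36*, carries a ribosomal name but encodes a component of the oxoglutarate dehydrogenase complex. Bacterial homologues made up 45 of the genes and mitochondria-specific proteins 28, beside the 3 paralogs of bacterial S18. Of these paralogs, *Mrps18a* encodes a large subunit protein and *Mrps18b* and *Mrps18c* small subunit proteins. The genes were spread over 17 chromosomes.

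Promoter features, which the gene names did not select, were counted next. RefSeq promoter windows (GRCm38.p6, 250 bases before to 50 after the start, both strands searched) were at hand for 68 members and for 11568 of all listed genes. The ETS letters CCGGAAG, which the factor GABP (NRF-2) can bind, occurred in 24 of 68 member windows (35.3%) and in 15.98% of all windows. The NRF-1 letters GCGCATGC, named for another regulator of nuclear genes for mitochondrial proteins, occurred in 8 member windows (11.8%) and in 4.997% of all. The YY1 letters GATGGCGG occurred in 7.35% of member windows and 3.23% of all, the E-box CACGTG in 7.35% and 9.79%, and the TATA letters TATAAA in 5.88% and 7.17%. At least 1 of the ETS, NRF-1 and YY1 letters was present in 45.6% of member windows and 22.4% of all. The ETS letters occurred in 7 of 19 windows of members that fell after reversal learning in KO mice and in 17 of 49 windows of the others. A match is a description of letters and not a bound site. In the GENCODE M21 annotation, 18 of 77 members (23.4%) had a protein-coding neighbour on the other strand that started within 1000 bases upstream, as had 9.23% of 14545 listed protein-coding genes. Examples are *Mrps18c* with the helicase gene *Helq* and *Mrps12* with the mitochondrial synthetase gene *Sars2*.

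Upstream windows of 250 bases are shown for 4 members described below whose window overlaps annotated exons by 30 bases or fewer and holds a match, with the matching letters in capitals, read 5′ to 3′ on the strand of the gene. *Mrpl20* (chr4:155802628-155802877, plus strand) has an E-box that begins 33 bases before the start. *Mrpl33* (chr5:31613701-31613950, plus strand) has the NRF-1 letters 12 bases before it. *Mrps18a* (chr17:46110754-46111003, plus strand) has the ETS letters at 26 bases. *Mrpl17* (chr7:105811088-105811337, minus strand) has the NRF-1 letters at 11 bases and the ETS letters at 237 bases. The first pair fell in trained KO mice and the second pair was called in no comparison.
Mrpl20: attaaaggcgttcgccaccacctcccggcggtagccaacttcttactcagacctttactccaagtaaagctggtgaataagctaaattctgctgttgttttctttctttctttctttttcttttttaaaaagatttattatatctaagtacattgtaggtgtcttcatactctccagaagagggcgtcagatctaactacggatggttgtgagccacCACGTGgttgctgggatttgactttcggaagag
Mrpl33: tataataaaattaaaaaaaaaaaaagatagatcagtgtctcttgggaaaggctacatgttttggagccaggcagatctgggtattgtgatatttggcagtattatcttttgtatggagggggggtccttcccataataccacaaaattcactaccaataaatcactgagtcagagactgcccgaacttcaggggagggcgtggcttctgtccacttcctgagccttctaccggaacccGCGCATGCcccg
Mrps18a: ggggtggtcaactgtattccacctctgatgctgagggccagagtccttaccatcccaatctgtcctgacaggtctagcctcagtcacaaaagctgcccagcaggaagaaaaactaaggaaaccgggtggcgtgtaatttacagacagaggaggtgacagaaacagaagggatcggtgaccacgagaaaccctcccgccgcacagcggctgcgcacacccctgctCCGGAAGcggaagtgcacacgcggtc
Mrpl17: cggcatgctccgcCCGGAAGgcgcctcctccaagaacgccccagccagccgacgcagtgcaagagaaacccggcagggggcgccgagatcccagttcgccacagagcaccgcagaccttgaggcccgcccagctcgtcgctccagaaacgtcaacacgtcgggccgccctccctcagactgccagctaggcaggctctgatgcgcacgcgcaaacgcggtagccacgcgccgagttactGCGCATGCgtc

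All 77 members were expressed in every library, and the fewest reads of any member in any library were 226. Together they took 0.197% to 0.294% of the reads on listed genes. Levels between genes were compared per kb of transcript, as the mean CPM over 18 libraries divided by the length of 1 annotated transcript per gene, so a level depends on the transcript chosen. They ran from 3.67 CPM per kb for *Mrps35*, a mitochondria-specific protein of the small subunit, to 72.0 CPM per kb for *Mrpl20*, a bacterial L20 homologue of the large subunit. *Mrpl47* (3.93) and *Mrpl17* (4.65) were next to the lowest, and *Mrps21* (69.8) and *Mrpl41* (65.04) next to the highest. On this scale, proteins of the same particle had transcripts at unlike levels. Before division by length, mean CPM ran from 9.10 for *Mrps28* to 66.4 for *Mrpl12*. *Mrpl17* has the long annotated transcript of 7300 bases and *Mrps21* one of 488 bases. Their mean CPM was nearly equal (33.9 and 34.0), so their gap per kb comes from the annotated lengths.

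**Figure D1:**
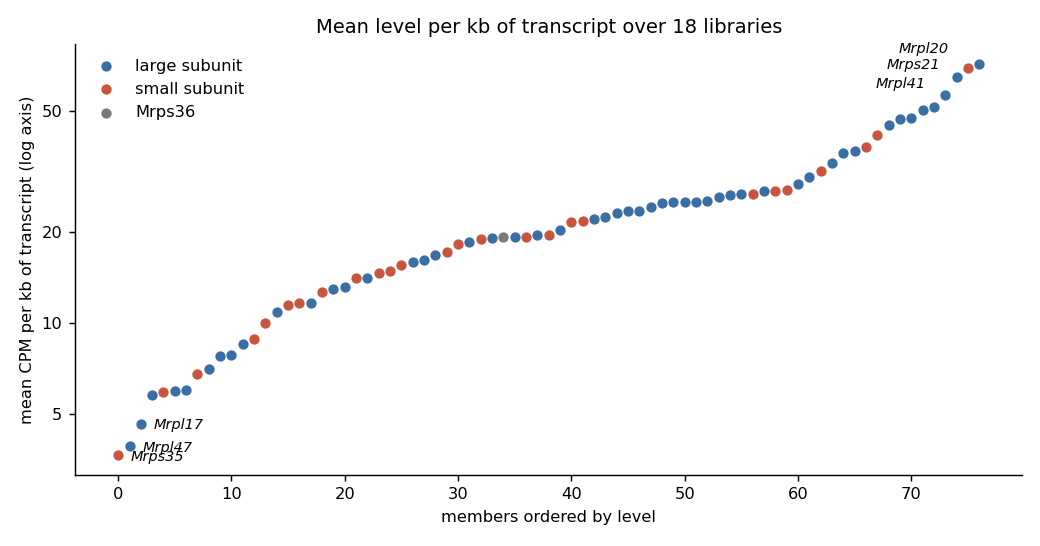
Mean CPM per kb of transcript (vertical, log axis) of the 77 genes in order of level, coloured by subunit. Levels run from 3.67 (*Mrps35*) to 72.0 (*Mrpl20*), and genes of both subunits lie along the whole range.

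Members varied between mice of the same group. After subtraction of group means, the SD of the log2(CPM + 1) values over libraries was 0.053 for *Mrpl45* and 0.23 for *Mrps6*, the ends of the range. The pairs most alike in this variation over 18 libraries were *Mrpl54* with *Mrps10* (Pearson r = 0.98), *Mrps26* with *Mrpl20* (r = 0.96) and *Mrps10* with *Mrpl21* (r = 0.96). Much of it was shared. WT_OL mouse 2 held the highest value of 41 of the 77 members, with a member median 0.27 above the WT_Basal mean on the log2 scale. KO_RL mouse 2 held the lowest value of 28 members (median −0.20) and WT_RL mouse 3 of 18 members (median −0.16). KO_Basal mice 1 and 2 stood at 0.10 and 0.14, and KO_Basal mouse 3 at −0.03.

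The shift of the members in a library went with that of other short transcripts. Of the 77 members, 49 lay in the shortest quintile of all listed genes, at up to 1698 bases. In 17 of 18 libraries the member median had the same sign as the median of the other genes in that quintile, which was 0.19 in WT_OL mouse 2, −0.20 in KO_RL mouse 2, −0.13 in WT_RL mouse 3 and 0.10 in KO_Basal mouse 2. The longest quintile stood at −0.24, 0.17, 0.15 and −0.08 in those libraries. The 76 cytosolic ribosomal protein genes shifted further the same way, at 0.42, −0.34, −0.25 and 0.22. Between 29248557 and 31509208 reads fell on the listed genes in libraries of untrained mice, and between 31830344 and 37915576 in those of trained mice, with no overlap.

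**Figure D2:**
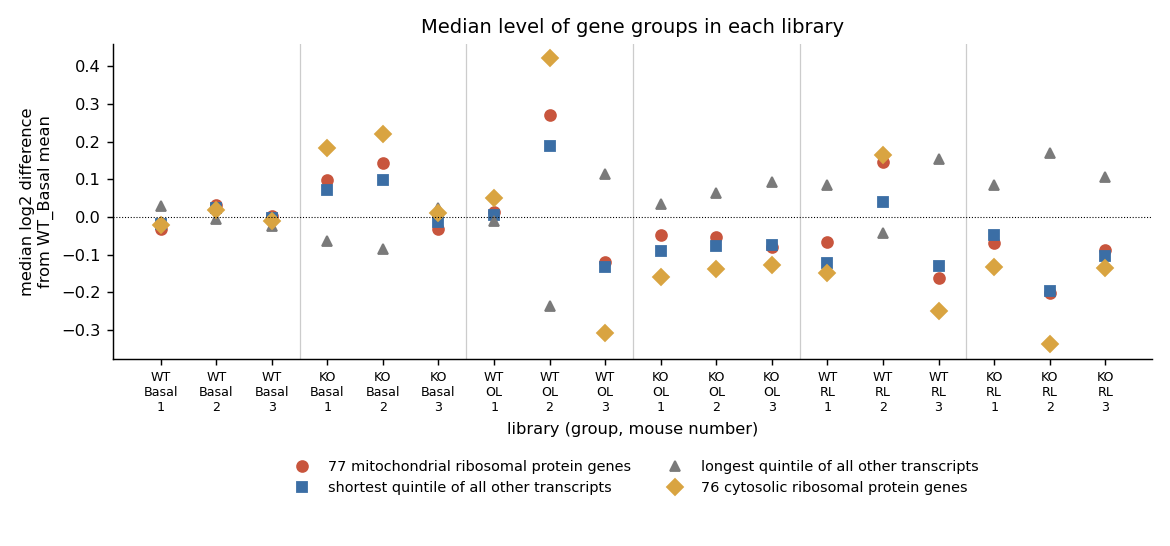
Median log2 difference from the WT_Basal mean (vertical) in each of 18 libraries (horizontal) for the members, the shortest and longest quintiles of other transcripts, and cytosolic ribosomal protein genes. WT_OL mouse 2 is highest for the members (0.27) and KO_RL mouse 2 lowest (−0.20), and the longest transcripts move the other way.

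Other tissue also differed between dissections. Summed CPM of 12 choroid plexus markers was 229.2 to 1144 in KO_Basal libraries, 1455 to 6500 in WT_Basal, 3154 to 4924 in WT_OL, 3662 to 7009 in KO_OL, 218.2 to 12806 in WT_RL and 2123 to 7740 in KO_RL, with no marker at 0 in any library. All 12 markers were called higher in KO_OL than in KO_Basal, and 10 of 12 in KO_RL. Summed CPM of 5 hypothalamic markers reached 101.3 in 1 KO_Basal library and was at most 11.2 in all others, with 1 of the 5 at 0 in some library of each group. Hippocampal markers were present throughout, with 577.7 to 871.6 CPM for 5 CA1 markers and 147.2 to 385.2 CPM for 5 dentate markers. Dentate sums were 216.9 to 250.7 CPM in WT_Basal and 313.2 to 364.5 in WT_RL. Sums of 5 astrocyte markers were 1950 to 1971 CPM in KO_Basal, 1697 to 1743 in KO_OL and 1633 to 1848 in KO_RL. Those of 5 endothelial markers were 194.4 to 212.3, 153.7 to 177.9 and 172.1 to 187.6 CPM in the same groups. The part of these differences in the results on KO_Basal and WT_RL was not tested.

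Original learning in WT mice was compared first (WT_OL minus WT_Basal). Of the 77 members, 1 was called lower and 0 higher at a Benjamini-Hochberg adjusted p under 0.05 in limma, where 9.5% of all 15329 genes were called (3.88% higher and 5.62% lower). The gene was *Mrpl47*, whose product is the homologue of bacterial L29 beside the exit tunnel of the large subunit. It had 15.2, 15.8 and 14.5 CPM in WT_Basal mice and 12.6, 12.3 and 10.99 CPM in WT_OL mice. The groups did not overlap, and the log2 fold change was −0.32 ± 0.083 (SE, n = 3 per group, adjusted p = 0.0241). Unadjusted p was under 0.05 for 12 members, 6 in each direction (15.6% of members, against 25.9% of all genes). The median of the 77 log2 fold changes was 0.03 (all genes: −0.0003). It became −0.06 without WT_OL mouse 2 and 0.14 without WT_OL mouse 3, and in the latter case 6 members were called higher and 0 lower. The count was 0 without any single WT_Basal mouse and 0 with a correction for GC content.

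After reversal learning in WT mice (WT_RL minus WT_Basal), 4 members were called lower and 0 higher (5.19%), where 15.7% of all genes were called (8.28% higher and 7.42% lower). They were *Mrps18c*, the mitochondrial counterpart of bacterial S18, *Mrpl11*, the protein at the base of the stalk where translation factors dock, *Mrpl50*, a mitochondria-specific large subunit protein, and *Mrps14*, a bacterial S14 homologue of the small subunit. The median over members was −0.01. Without any single WT_Basal mouse 1 call was left. Without WT_RL mouse 2 there were 6 lower and 1 higher, and without WT_RL mouse 3 there was 1 in each direction.

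In KO mice lower calls were made after both kinds of training. After original learning (KO_OL minus KO_Basal), 11 of 77 (14.3%) were called lower and 0 higher. Over all genes 23.5% were called, 12.3% lower and 11.2% higher, so the share of lower calls was near that of all genes. With length correction 12 members were lower and 9 higher, and with GC and length 7 lower and 5 higher. The shares of all genes called in those 2 corrected fits are not given here. Unadjusted p was under 0.05 for 23 lower and 3 higher members (33.8% of members, against 36.6% of all genes). The log2 fold change was negative in 63 members (81.8%, against 51.1% of all genes), with a median of −0.12. The calls comprised 9 large subunit genes and 2 small subunit genes. Beside the genes above, they were *Mrpl1*, from the movable L1 arm, *Mrpl13*, *Mrpl20* and *Mrpl32*, all bacterial homologues, and the mitochondria-specific *Mrpl40* and *Mrpl53*. The count fell to 4 without KO_Basal mouse 1, 5 without KO_Basal mouse 2 and 6 without KO_OL mouse 3.

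After reversal learning (KO_RL minus KO_Basal), 21 of 77 members (27.3%) were called lower and 0 higher. Over all genes 23.6% were called, 12% lower and 11.6% higher. All 31 members with an unadjusted p under 0.05 were lower. They were 40.3% of the members, against 36.6% of all genes at an unadjusted p under 0.05 in either direction. The log2 fold change was negative in 65 members (84.4%, against 50.5% of all genes), with a median of −0.17. The calls comprised 12 of 50 large subunit genes and 9 of 26 small subunit genes, and 13 of 45 bacterial homologues and 7 of 28 mitochondria-specific genes. The medians were −0.16 for the large and −0.20 for the small subunit. The 11 genes called after original learning were all among the 21 (100% of the first list and 52.4% of the second), but both comparisons use the same KO_Basal mice. The other 10 were *Mrpl27*, *Mrpl33* and *Mrpl54* of the large subunit and *Mrps5*, *Mrps9*, *Mrps10*, *Mrps16*, *Mrps23*, *Mrps31* and *Mrps33* of the small subunit. The count was 6 without KO_Basal mouse 1, 6 without KO_Basal mouse 2, 5 without KO_RL mouse 2, 9 without KO_RL mouse 3 and 12 without KO_RL mouse 1. It was 22 without KO_Basal mouse 3.

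**Figure D3:**
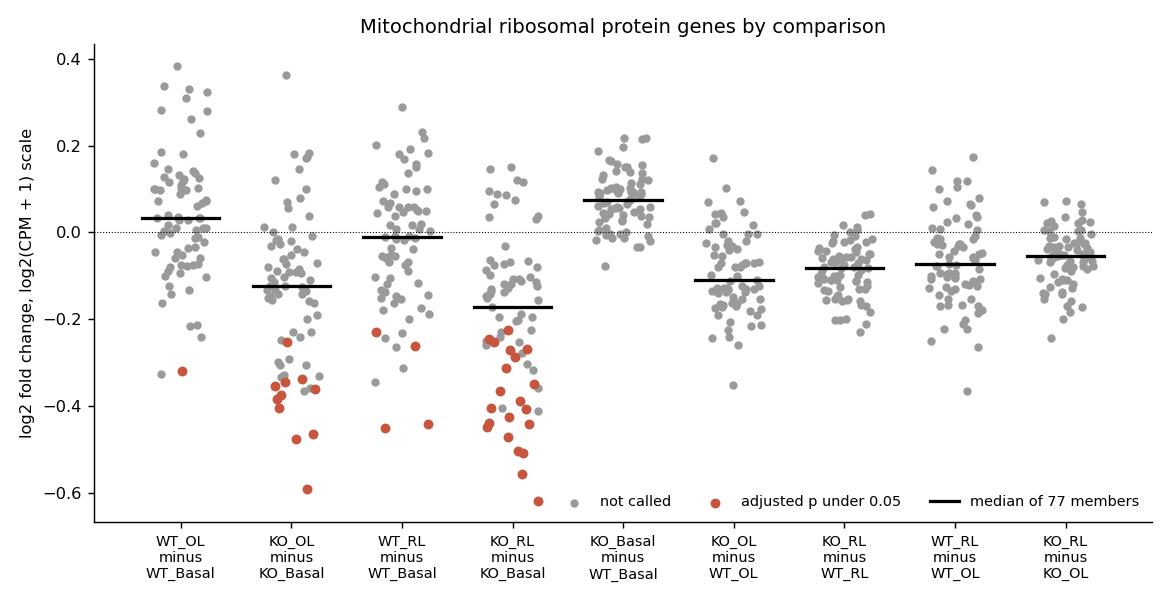
Log2 fold change of each of the 77 members (points) in the 9 comparisons of paired groups, with the median as a black bar and genes at an adjusted p under 0.05 in red. Red points lie below 0 in the 4 comparisons of trained with untrained mice, 21 of them in KO_RL minus KO_Basal, and there are none in the other 5.

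*Mrpl11* showed the largest fall after reversal learning in both genotypes. It lies at chr19:4962147-4966999 (GRCm38, plus strand). It had 69.8, 63.0 and 52.9 CPM in KO_Basal mice, 45.3, 46.3 and 41.4 in KO_OL mice and 41.1, 37.1 and 41.1 in KO_RL mice. In WT mice it had 57.3, 60.4 and 59.5 CPM untrained, 48.8, 52.3 and 40.2 after original learning and 42.6, 50.5 and 36.8 after reversal learning. Every trained mouse of either genotype was below every untrained mouse. The log2 fold change was −0.62 ± 0.12 for KO_RL (adjusted p = 0.00158), −0.47 ± 0.12 for KO_OL (0.0095), −0.45 ± 0.12 for WT_RL (0.0170) and −0.33 ± 0.12 for WT_OL, which was not called (adjusted p = 0.089). The fall in KO_RL was called in 19 of 19 alternative settings. The other proteins of the stalk, *Mrpl10* and *Mrpl12*, were called in no comparison of the fit to the deposited values. *Mrpl10* had 57.7 ± 3.1 CPM (SD, n = 3) in KO_Basal and 54.9 ± 1.65 in KO_RL, and *Mrpl12* had 75.7 ± 10.2 and 56.6 ± 7.02 (log2 fold change −0.41 ± 0.15, adjusted p = 0.064). In KO_RL *Mrpl12* was called lower in 7 alternative settings, among them GC correction (−0.49 ± 0.14, adjusted p = 0.0221), and the difference between the stalk genes was not tested.

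In KO mice *Mrps18c* had the largest fall after original learning. It lies at chr5:100798627-100804471 (plus strand), and 23.2% of its exonic length overlaps the unnamed model *Gm43511* on the same strand. It had 23.6, 29.0 and 25.1 CPM in KO_Basal mice, 18.5, 16.6 and 15.4 in KO_OL mice and 16.2, 17.8 and 17.7 in KO_RL mice. WT mice had 25.8, 25.4 and 21.5 CPM untrained, 20.4, 23.8 and 17.2 after original learning and 18.7, 17.7 and 16.2 after reversal learning. The trained and untrained mice did not overlap in KO mice or after reversal learning in WT mice. WT_OL overlapped WT_Basal through mouse 2. Log2 fold changes were −0.59 ± 0.11 (KO_OL, adjusted p = 0.00164), −0.56 ± 0.11 (KO_RL, 0.00251), −0.44 ± 0.11 (WT_RL, 0.0156) and −0.24 ± 0.11 (WT_OL, 0.192).

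The paralogs of *Mrps18c* were not called in any comparison of the fit to the deposited values. *Mrps18a* had 41.2 ± 3.41 CPM in KO_Basal, 39.1 ± 1.37 in KO_OL and 39.3 ± 2.03 in KO_RL (KO_RL log2 fold change −0.07 ± 0.13, adjusted p = 0.742). *Mrps18b* had 11.6 ± 0.474, 13.2 ± 0.463 and 11.9 ± 0.933 CPM (KO_OL log2 fold change 0.17 ± 0.094, adjusted p = 0.195). With length correction *Mrps18b* was called higher in KO_OL (0.31 ± 0.073, adjusted p = 0.00512) and KO_RL (0.21 ± 0.073, adjusted p = 0.0428), and with GC and length correction in KO_OL (0.28 ± 0.073, adjusted p = 0.0183). The difference between the paralogs was not tested. *Mrps18b* shares 30.5% of its exonic length with the antisense model *Gm16279*.

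*Mrps14* (chr1:160195215-160202170, plus strand) had 46.6, 47.7 and 40.1 CPM in KO_Basal mice, 35.1, 33.8 and 31.6 in KO_OL mice and 35.4, 32.9 and 33.4 in KO_RL mice. The trained KO mice all lay below the untrained ones. Log2 fold changes were −0.41 ± 0.084 (KO_OL, adjusted p = 0.00275), −0.39 ± 0.084 (KO_RL, 0.00358) and −0.26 ± 0.084 (WT_RL, 0.0431). *Mrpl50* (chr4:49512596-49521093, minus strand) had 58.8, 58.2 and 56.0 CPM in KO_Basal mice and 46.1, 46.2 and 46.4 in KO_RL mice. This was a narrow spread around a drop of 0.31 ± 0.069 on the log2 scale (adjusted p = 0.0045). With a correction for the GC content of transcripts, neither gene was called in KO_RL (*Mrps14* −0.10, adjusted p = 0.545; *Mrpl50* −0.13, adjusted p = 0.323). In WT_RL that correction gave 0.034 for *Mrps14* and −0.045 for *Mrpl50*, and with GC and length *Mrpl50* stood at 0.012 in KO_OL, so these falls lost their call or their sign.

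Other large subunit genes also fell in KO mice. *Mrpl20*, whose bacterial homologue L20 is needed early in assembly, had 66.0, 68.4 and 60.4 CPM in KO_Basal mice, 50.8, 49.7 and 48.8 in KO_OL mice and 47.2, 43.2 and 46.0 in KO_RL mice. None of the trained KO mice reached an untrained one, the log2 fold change in KO_RL was −0.50 ± 0.11 (adjusted p = 0.00378), and this call held in 19 of 19 alternative settings. *Mrpl33* had 27.8, 28.7 and 24.5 CPM in KO_Basal mice and 18.6, 18.2 and 19.2 in KO_RL mice (−0.51 ± 0.15, adjusted p = 0.0192). *Mrpl13* had 36.2, 35.1 and 29.3 CPM in KO_Basal mice and 25.8, 21.9 and 25.4 in KO_RL mice (−0.44 ± 0.13, adjusted p = 0.0250). *Mrpl47* had 14.3, 16.8 and 14.1 CPM in KO_Basal mice, 12.1, 11.8 and 11.1 in KO_OL mice and 12.8, 11.5 and 12.7 in KO_RL mice, with adjusted p = 0.00815 in KO_OL and adjusted p = 0.0289 in KO_RL. Its exons share 13.9% of their length with *Actl6a* and *Ndufb5* on the other strand. The mitochondria-specific *Mrpl53* had 27.4, 26.1 and 24.6 CPM in KO_Basal mice and 19.5, 16.2 and 19.9 in KO_RL mice (−0.47 ± 0.16, adjusted p = 0.0471), but 88.0% of its exonic length overlaps *Gm42688* on the same strand, so its level is uncertain. The KO_RL call of *Mrpl53* was made in 8 of 19 alternative settings, that of *Mrpl47* in 12, that of *Mrpl33* in 15 and that of *Mrpl13* in 16.

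*Mrps12*, the homologue of the decoding-site protein S12, was among the 12 members with a positive log2 fold change in KO_RL minus KO_Basal. It had 28.04, 28.4 and 27.3 CPM in KO_Basal mice and 33.4, 28.7 and 31.2 in KO_RL mice. The groups did not overlap, yet the log2 fold change of 0.15 ± 0.10 did not pass the test (adjusted p = 0.310). The value in WT_OL was 0.26 ± 0.10 (adjusted p = 0.114).

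**Figure D4:**
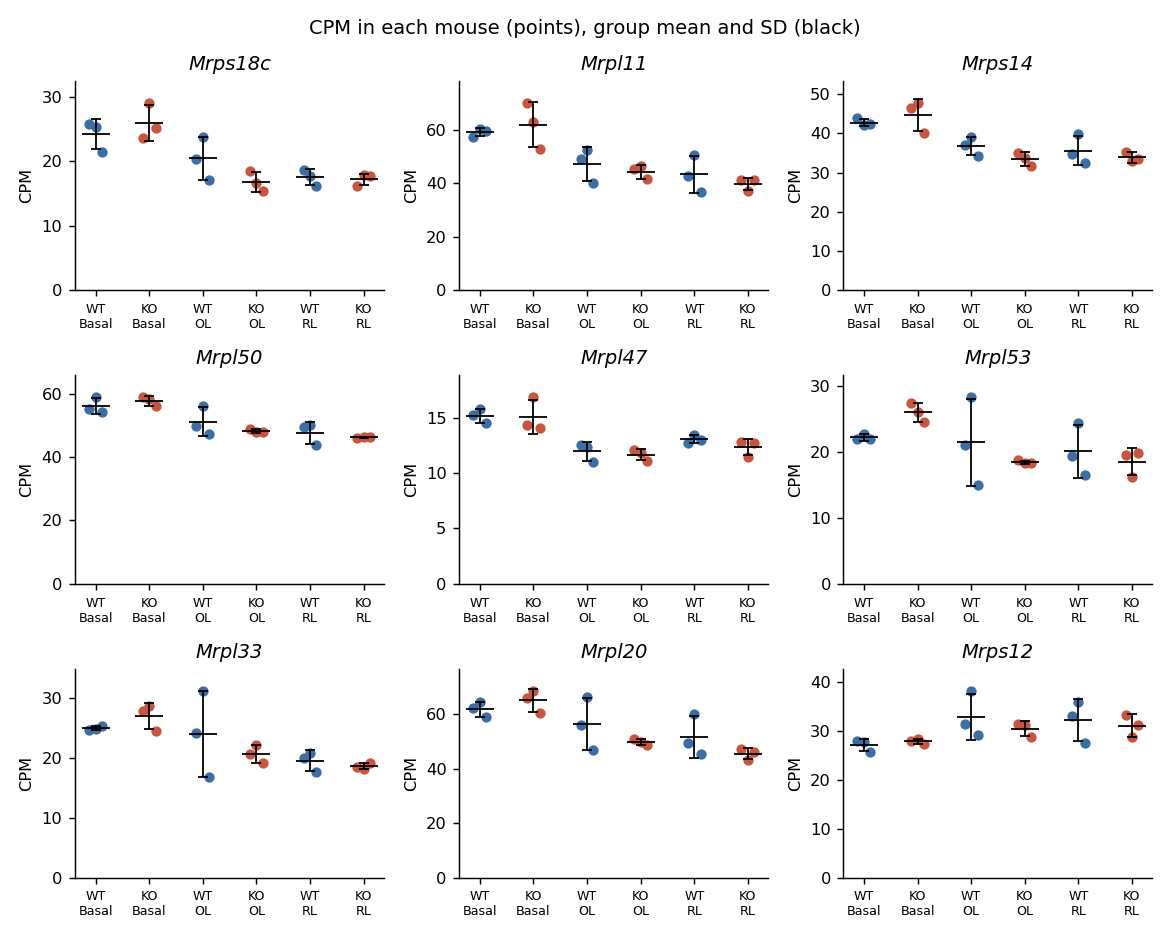
CPM (vertical, from 0) of 9 members in each mouse, with group mean and SD in black, WT in blue and KO in red. Trained KO mice lie below KO_Basal mice in the first 8 genes, and *Mrps12* is the exception.

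Because short transcripts moved together between libraries, the changes were set beside transcript length. In KO_RL minus KO_Basal, the median of other genes went from −0.16 in the shortest quintile through −0.05, 0.01 and 0.06 to 0.16 in the longest. The median of the 49 members in the shortest quintile was −0.22, with 13 called. The 9 members of the middle quintile (2555 to 3479 bases) had a median of −0.29, with 6 called, among them *Mrpl11*, *Mrps14* and *Mrpl47*. The 3 members of the longest quintile had a median of −0.15. In each quintile the member median was below that of the other genes, by least in the second (−0.07 against −0.05). The change also went with GC content, as the median of other genes was −0.20 in the lowest GC quintile and 0.10 in the highest. The members in those quintiles had medians of −0.27 and −0.11, with 6 of 10 and 1 of 11 called. The shares of other genes called in each quintile of length or GC content are not given here. The counts of called members per quintile are thus not read as a result about the members. Against the WT_Basal mean, other genes of the lowest GC quintile had library medians of −0.32 to −0.14 in trained mice of both genotypes. In untrained mice of both genotypes these library medians were −0.02 to 0.02. Every comparison of trained with untrained mice thus holds this shift, whose source was not tested. After the trend with length was removed from each library, 12 of the 21 calls were made again and 6 members were called higher, *Mrps12* (0.38 ± 0.066), *Mrpl34*, *Mrpl4*, *Mrps34*, *Mrpl38* and *Mrps18b*. The median over members was then −0.08. With GC content alone removed, 19 members were called, and 12 of these were among the 21. With GC content and length removed together, 5 were called lower and 4 higher. Of the 21 calls, 4 were then made again, among them *Mrpl11* (−0.63 ± 0.12) and *Mrpl20* (−0.30 ± 0.050). *Mrpl12* (−0.31 ± 0.095) was a lower call outside the 21.

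**Figure D5:**
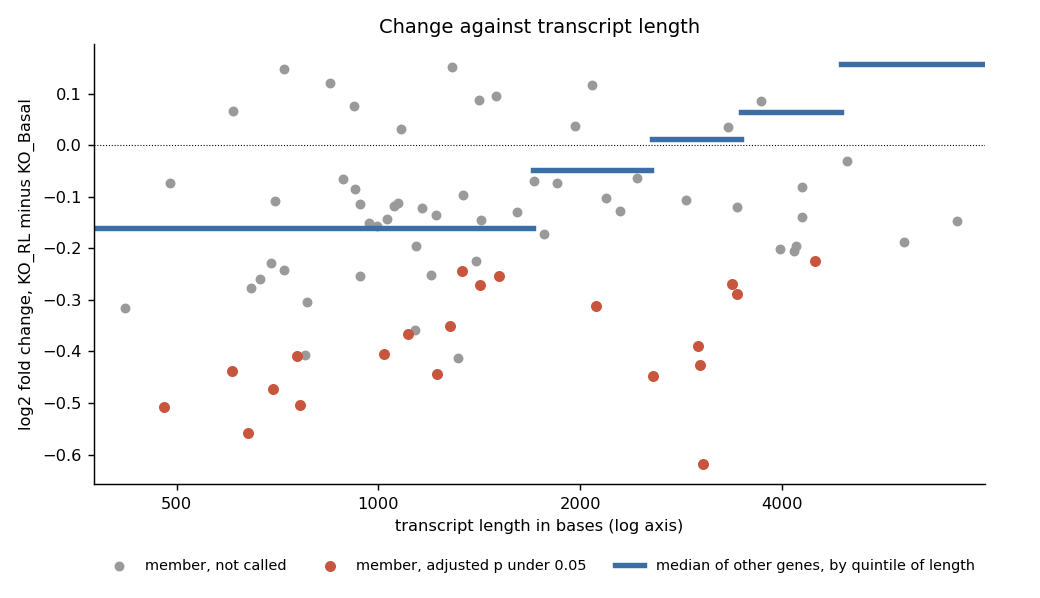
Log2 fold change in KO_RL minus KO_Basal (vertical) against transcript length in bases (horizontal, log axis) for the 77 members, with called genes in red and the median of other genes in each quintile of length as blue bars. The bars climb from −0.16 to 0.16 with length, and called members lie below them at short and middle lengths.

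Reversal and original learning were compared directly within each genotype. No member was called in WT_RL minus WT_OL (0.261% of all genes were called; 2 members at an unadjusted p under 0.05) or in KO_RL minus KO_OL (0.0196% of all genes; 0 members), and voom on the recovered reads called 0 in both. Over all genes unadjusted p was under 0.05 in 16.4% and 4.81%. The member medians were −0.07 and −0.05. The first became 0.05 without WT_OL mouse 2, and 2 members were called lower in it without WT_OL mouse 3.

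No member was called between genotypes. The counts were 0 in KO_Basal minus WT_Basal (0.0196% of all genes called), KO_OL minus WT_OL (0.0652%), KO_RL minus WT_RL (0%) and the mean difference over the 3 training states (0.0326%), with 0, 3, 1 and 0 members at an unadjusted p under 0.05 and 0 calls by voom. The SE of a member's difference in a training state was 0.062 to 0.17, so small differences were not detectable with 3 mice. For *Mrpl11* the 95% interval of KO_RL minus WT_RL was −0.36 to 0.14, and for *Mrps18c* it was −0.26 to 0.22. The member median was 0.07 in untrained mice, −0.11 after original learning and −0.08 after reversal learning. The second became 0.01 without WT_OL mouse 2, and 5 members were called lower in it without WT_OL mouse 3.

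Whether the training changes differed between genotypes was tested as a difference of differences, and no member passed. In original learning the KO change minus the WT change had a member median of −0.16, with 70 of 77 members negative (all genes: 50.7%). In reversal learning the median was −0.16, with 74 of 77 negative (all genes: 50.5%). Other genes of the shortest quintile of length had medians of −0.15 and −0.11, and the members in it −0.20 and −0.16. In the fourth quintile other genes stood at 0.05 and 0.03, and the 7 members at −0.16 and −0.19. Members shifted together between libraries, so their signs are not independent. In either, and in the difference between reversal and original learning, 0 members and 0% of all genes were called. Unadjusted p was under 0.05 for 3, 2 and 0 members (all genes: 12.4%, 4.99% and 7.98%), and voom called 0. For *Mrps18c* in original learning the difference was −0.35 ± 0.16 (adjusted p = 0.394). For *Mrpl20* in reversal learning it was −0.24 ± 0.15 (adjusted p = 0.908). Without WT_OL mouse 3, 1 member was called in the original learning difference.

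Other genes of mitochondrial translation did not move in a single direction. Their shares of called genes are read against those of all genes, 23.6% in KO_RL, 23.5% in KO_OL, 15.7% in WT_RL and 9.5% in WT_OL, each set against untrained mice. Each gene named from these lists is given in the comparison where its p was smallest. A change is thus not shown to be limited to that comparison. Of 6 mitoribosomal proteins under other names, 1 was lower in KO_OL and in KO_RL (16.7% each). *Chchd1*, a small subunit protein, fell from 31.9 ± 4.13 CPM in KO_Basal to 19.3 ± 2.29 in KO_RL (log2 fold change −0.69 ± 0.18, adjusted p = 0.0099). Of 14 genes listed as translation factors, 2 were higher and 2 lower in KO_OL and 1 and 2 in KO_RL. In WT_RL 3 were higher and 2 lower, and in WT_OL 1 and 1. The share called was 28.6% in KO_OL and 21.4% in KO_RL. The elongation factor gene *Tufm* rose in WT_RL (0.36 ± 0.083, adjusted p = 0.00867), the initiation factor gene *Mtif2* fell in WT_RL (−0.30 ± 0.068, 0.00778), and *Guf1*, the mitochondrial EF4 homologue, fell in KO_OL (−0.70 ± 0.12, 0.000677). *Letm1*, an inner membrane protein counted on the translation factor list, rose from 81.0 ± 3.11 to 103.8 ± 4.19 CPM in WT_RL (0.35 ± 0.057, adjusted p = 0.00103). In KO mice the means of these genes moved alike from KO_Basal to KO_OL. *Letm1* had 79.4 ± 1.55 and 99.8 ± 4.45 CPM, *Tufm* 45.5 ± 2.64 and 57.2 ± 3.06, and *Mtif2* 30.8 ± 1.33 and 24.8 ± 1.01.

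Of 22 aminoacyl-tRNA synthetase genes that serve mitochondria, 6 were higher and 2 lower in KO_RL, 4 and 3 in KO_OL, 3 and 2 in WT_RL, and 1 and 1 in WT_OL, with 36.4% called in KO_RL and 31.8% in KO_OL. *Gars* (0.36 ± 0.069, adjusted p = 0.00161) and *Kars* (0.31 ± 0.066, 0.00315), which also charge cytosolic tRNA, rose in KO_OL. In WT mice *Gars* had 122.4 ± 7.75 CPM in WT_Basal and 155.4 ± 10.1 in WT_RL. *Lars2* fell in KO_RL (−0.83 ± 0.17, 0.00227) from a level of 4285 ± 525.8 CPM. That level was far above those of *Gars* (119.9), *Kars* (64.0) and *Rars2* (20.3 CPM) in KO_Basal. Whether all *Lars2* reads come from the synthetase mRNA was not tested, so this fall is uncertain. *Rars2* fell in WT_RL (−0.44 ± 0.074, 0.0013). Of 27 genes listed under mitoribosome assembly and rRNA modification, 4 were higher and 2 lower in KO_RL and 4 and 3 in KO_OL. In WT_RL 2 were higher and 1 lower, and in WT_OL 1 and 0. The share called was 22.2% in KO_RL and 25.9% in KO_OL. *Dhx30*, an RNA helicase of assembly, rose in KO_RL (0.36 ± 0.081, 0.00474), as did the RNA methyltransferase gene *Nsun2* (0.33 ± 0.068, 0.00256), while *Mterf3* (−0.48 ± 0.084, 0.000947) and *Gtpbp10* (−0.49 ± 0.089, 0.00119) fell in KO_OL.

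Of 17 genes of mitochondrial transcription and RNA maintenance, 6 were lower and 3 higher in KO_RL, 5 and 1 in KO_OL, 3 and 3 in WT_RL, and 1 and 1 in WT_OL, with 52.9% called in KO_RL and 35.3% in KO_OL. *Ssbp1*, the mitochondrial single-stranded DNA-binding protein, fell from 21.3 ± 0.406 CPM in KO_Basal to 14.8 ± 1.21 in KO_OL (−0.50 ± 0.085, adjusted p = 0.000693). *Slirp* (−0.50 ± 0.10, 0.00292), which stabilises mitochondrial mRNA, and *Trmt10c* (−0.46 ± 0.092, 0.00212), of the mitochondrial RNase P, fell in KO_RL, whereas the tRNA-processing gene *Elac2* rose (0.36 ± 0.077, 0.00319). No gene of the mitochondrial genome is among the listed genes, so the RNA of the mitoribosome was not analysed here.

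Genes of the cytosolic ribosome and of the respiratory chain were set beside the members. Of 76 cytosolic ribosomal protein genes, 29 were lower and 0 higher in KO_RL (median −0.35), 19 and 0 in KO_OL (−0.28), 1 and 0 in WT_RL (−0.07) and 1 and 0 in WT_OL (0.05). Of 81 nuclear genes for subunits of oxidative phosphorylation, 26 were lower and 0 higher in KO_RL (−0.25), 12 lower and 1 higher in KO_OL (−0.14), 2 and 0 in WT_RL (−0.05), and 1 each way in WT_OL (0.05). In both comparisons of KO mice each of these sets and the members had lower calls and at most 1 higher call. Over all members, 21 genes were called in at least 1 comparison, each time lower, and 56 in none. The share of all genes called in at least 1 comparison is not given here. *Mrpl11*, *Mrpl47*, *Mrpl50*, *Mrps14* and *Mrps18c* were called in 3 comparisons each.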

How the data were processed

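RNA-seq libraries of 18 mouse hippocampi were grouped by their labels. The authors aligned reads to mm10 with STAR 2.5.1, counted them per gene with its count module, scaled them by TMM in edgeR 3.12.1 and deposited log2 values, whose steps show them to be log2(TMM-normalized CPM + 1). The methods describe CPM floored at 1, which was run as an alternative. Whole reads were recovered for 100% of the values (within 0.05 reads). The strand used in counting is not given in the sources used here, so 32 members that overlap exons of other genes, 8 of them on the same strand, may share reads.

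The log2 values of 15329 genes were fitted with limma 3.58.1 in R 4.3.3 (1 mean per group, 12 residual degrees of freedom, variance trend), with two-sided tests and Benjamini-Hochberg adjustment over all genes. Fold changes on this scale understate those of low genes. Lengths and GC content came from GENCODE M21 and covered 99.3% of the genes and all 77 members. For the length and GC alternatives, a lowess curve (span 0.3) was removed from each library. The fit was tested on simulated data.

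The members, gene lists and tests were chosen with earlier results of these data known. Named were the 5 largest called rises and falls without overlap between groups in each training comparison, the S18 paralogs, the stalk genes *Mrpl10*, *Mrpl11* and *Mrpl12*, *Mrps12*, the 3 highest and 3 lowest per kb, the 3 most alike pairs, and up to 4 called genes per pathway list with the smallest p. Other members were named after their values were seen, to complete a count. Pairs of libraries from mice of 1 group differed by far more than read sampling (chi-square 8.74 to 104 for each gene tested), so none was the same library sequenced again. Separate libraries made from the same RNA could also differ by more than read sampling, so this measure cannot exclude them.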

Additional observations from a re-analysis of the deposited data

How the results depend on the processing

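The 22 calls of named members were made again in 330 of 418 alternative fits and turned in sign in 3, all with GC content removed: *Mrps14* in WT_RL minus WT_Basal (0.034 with GC correction, 0.026 with GC and length) and *Mrpl50* in KO_OL minus KO_Basal (0.012 with GC and length). The counts of called members moved as follows. The shares of all genes called in the alternative fits, here and above, are not given. A moved count is thus not read as a result about the members. For WT_OL minus WT_Basal (1) the count was 0 in the groups compared alone, 0 with GC correction, 0 with GC and length, 8 with length correction (6 higher), 15 with library weights (7 higher), 2 without WT_OL and WT_RL mice 2 (added after seeing the data, as was GC with length), and 0 to 6 without single mice. For KO_OL minus KO_Basal (11) it was 24 in the groups compared alone, 30 with library weights (2 higher), 7 with quantile normalization, 21 with length correction (9 higher), 12 with GC and length (5 higher), 24 without WT mice 2, and 4 to 10 without single mice. For WT_RL minus WT_Basal (4) it was 2 with GC correction (1 higher), 11 with length correction (6 higher), 7 with GC and length (5 higher), 10 without WT mice 2 (1 higher), and 1 to 7 without single mice. For KO_RL minus KO_Basal (21) it was 38 with library weights (1 higher), 18 with length correction (6 higher), 9 with GC and length (4 higher), and 5 to 22 without single mice. Library weights gave 11 for KO_OL minus WT_OL and 9 for the genotype difference in original learning. Without single mice the range was 0 to 2 for WT_RL minus WT_OL, 0 to 5 for KO_OL minus WT_OL and 0 to 1 for that difference. The cause was not tested. The other counts stayed within 1.5 times. No pairing by replicate number was evident, as the correlation of residuals was over 0.1 in 12 of 45 same-numbered pairs (−0.60 to 0.51). In pairs of unlike number it ran from −0.51 to 0.52. Residuals of 3 mice in a group sum to 0, so these correlations cannot exclude a batch shared by mice of the same number. With the replicate number as a block, the KO_RL count was 24, the KO_OL count 11, the WT_RL count 4 and the WT_OL count 1. With 3 mice per group the SE of a member's fold change was 0.062 to 0.17, which limits what could be detected.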
